A study of Mus musculus with 27 samples.

Results

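The subject is acetylation of histone H3 at lysine 9 (H3K9ac) in Acly-knockout (KO) and wild-type (WT) mouse hepatocytes after hypoxia-reperfusion (HR), measured by CUT&RUN, in which an antibody directs DNA cutting to the places its target occupies. These are 2 of the 27 samples of the series and 2 of its 11 CUT&RUN samples, 1 library per genotype, chosen by their labels. The members compared are the 8837 peaks of the KO list and the 7593 peaks of the WT list. The series addresses the part of ATP citrate lyase (ACLY) in liver that loses and regains its blood supply, and its other data are liver RNA after sham or ischemia-reperfusion surgery and CUT&RUN for H3K27ac and for FLAG-tagged ACLY. The KO hepatocytes came from Alb-cre:Aclyf/f mice, in which Cre recombinase made under the albumin promoter removes the floxed part of Acly in hepatocytes, and the WT hepatocytes from WT mice. Both were put into HR culture 24 hours after isolation. The labels do not give age, sex, the number of animals behind a library or the length of hypoxia, so genotype, animal and culture cannot be told apart and no difference below has a replicate check or a p-value.

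H3K9ac is laid down by histone acetyltransferases and marks the starts of active genes, mostly just downstream of the start site. The acetyl group comes from acetyl-CoA, and ACLY makes acetyl-CoA from citrate in the cytosol and the nucleus. ACSS2, which uses acetate, is another main source, while mitochondrial enzymes feed the export of the citrate that ACLY uses. In hepatocytes the mark lies at housekeeping genes and at genes of secreted plasma proteins, lipid metabolism and bile handling.

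The sequences that follow are the 250 bases before the start of 8 genes that carry the contrast described here, from RefSeq on build GRCm38.p6, 5′ to 3′ on the gene's strand, with each CG dinucleotide in capitals. They were chosen after their values were seen. Alb and Mbl2 had H3K9ac in both lists and ranked far higher in KO by total signal. Serpinc1 and Fga had it in the KO list only. The last 4 had it in the WT list only.
Alb, chr5:90460620-90460869, plus strand: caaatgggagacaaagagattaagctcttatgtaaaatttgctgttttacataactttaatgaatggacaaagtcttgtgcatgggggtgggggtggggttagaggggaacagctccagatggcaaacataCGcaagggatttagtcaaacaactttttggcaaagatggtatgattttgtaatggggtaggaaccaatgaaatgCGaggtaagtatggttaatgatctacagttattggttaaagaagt
Mbl2, chr19:30232678-30232927, plus strand: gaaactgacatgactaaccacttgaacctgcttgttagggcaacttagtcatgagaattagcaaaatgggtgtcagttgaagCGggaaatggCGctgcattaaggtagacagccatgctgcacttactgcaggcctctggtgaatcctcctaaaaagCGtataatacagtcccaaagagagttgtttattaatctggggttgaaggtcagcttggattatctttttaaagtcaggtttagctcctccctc
Serpinc1, chr1:160978333-160978582, plus strand: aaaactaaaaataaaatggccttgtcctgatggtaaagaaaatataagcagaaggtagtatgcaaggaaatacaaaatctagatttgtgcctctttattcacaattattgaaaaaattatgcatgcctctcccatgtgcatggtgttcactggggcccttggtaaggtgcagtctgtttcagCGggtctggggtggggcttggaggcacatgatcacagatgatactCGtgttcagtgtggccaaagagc
Fga, chr3:83025903-83026152, plus strand: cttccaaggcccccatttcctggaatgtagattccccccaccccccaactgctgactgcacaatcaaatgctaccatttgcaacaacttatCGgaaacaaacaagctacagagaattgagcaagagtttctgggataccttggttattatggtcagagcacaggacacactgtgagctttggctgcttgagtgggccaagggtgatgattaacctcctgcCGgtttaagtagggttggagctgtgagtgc
Nfkb2, chr19:46304487-46304736, plus strand: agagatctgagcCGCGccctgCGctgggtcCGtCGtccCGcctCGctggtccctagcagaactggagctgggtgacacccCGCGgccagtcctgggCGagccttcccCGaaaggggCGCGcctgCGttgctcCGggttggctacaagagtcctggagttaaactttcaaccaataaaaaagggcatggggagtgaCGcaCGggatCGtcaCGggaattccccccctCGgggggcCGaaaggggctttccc
Icam1, chr9:21015690-21015939, plus strand: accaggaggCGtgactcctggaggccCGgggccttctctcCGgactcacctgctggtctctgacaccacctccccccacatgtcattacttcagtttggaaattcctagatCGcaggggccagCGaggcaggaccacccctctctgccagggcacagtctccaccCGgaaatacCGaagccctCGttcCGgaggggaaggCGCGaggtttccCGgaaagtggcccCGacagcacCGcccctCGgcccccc
Mcm5, chr8:75109259-75109508, plus strand: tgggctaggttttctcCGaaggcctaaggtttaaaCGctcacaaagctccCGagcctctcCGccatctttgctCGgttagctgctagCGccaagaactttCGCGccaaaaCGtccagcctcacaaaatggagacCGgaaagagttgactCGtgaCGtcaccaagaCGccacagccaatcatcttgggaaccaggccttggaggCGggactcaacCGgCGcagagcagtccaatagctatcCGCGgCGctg
Hdac4, chr1:92180342-92180591, minus strand: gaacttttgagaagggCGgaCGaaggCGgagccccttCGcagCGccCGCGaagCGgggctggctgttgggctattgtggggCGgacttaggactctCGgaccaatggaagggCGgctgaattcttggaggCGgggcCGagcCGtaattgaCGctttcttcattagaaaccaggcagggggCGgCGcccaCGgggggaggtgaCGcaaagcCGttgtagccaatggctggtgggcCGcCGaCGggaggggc
The 4 genes of plasma proteins held 2 or 3 CG dinucleotides each, and the other 4 held 15 to 23, against a median of 10 over the 17486 coding genes with a usable sequence. Over all genes the classes lay closer, with a median of 13 in KO-only and 17.5 in WT-only genes, and single members went the other way. Tfrc (25) and Hsd17b7 (23) were in KO only, and Slc7a11 (2) and F10 (4) in WT only. GC content was 39.2% to 49.2% in the first 4 and 56.8% to 65.2% in the last 4. The letters GTTAAT, part of the site of the liver factor HNF1, were found on either strand before Alb and Fga and in 5.93% of all promoters. By class they were in 6.58% of KO-only genes, 3.02% of WT-only genes, 3.79% of genes of both and 7.10% of genes of neither.

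The lists were not made alike, which bears on every comparison. All WT peaks start on a grid of 10 bp and 10.04% of KO peaks do, and the signal values lie on scales that cannot be compared, so peaks were ranked within a list by total signal. KO peaks were narrow, with a median of 2961 bp (quartiles 2314 to 3971) and 30.35 Mb covered in all. WT peaks had a median of 6400 bp (quartiles 4720 to 8970) and covered 57.81 Mb. Of the 6248 KO and WT peaks that met each other one to one, the KO peak was wider in 125 (2.00%) and lay wholly inside the WT peak in 5448 (87.2%), and the median ratio of KO to WT width was 0.546. Width can follow genotype, depth or peak calling, which cannot be told apart here, and the depth of the libraries is unknown.

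The 2 genotypes marked largely the same places, and the strongest peaks were almost all shared. A WT peak was met by 7324 of 8837 KO peaks (82.9%, 95% Wilson interval 82.1 to 83.7), and a KO peak by 6749 of 7593 WT peaks (88.9%, 88.2 to 89.6). These intervals, and all those below, cover counting error only. Among the first 1000 peaks by rank the share was 99.7% in KO and 99.9% in WT. It was 84.5% and 81.5% at ranks 5001 to 6000, and 43.6% of the KO peaks ranked 8001 to 8837 met a WT peak. With the KO list cut to its 7593 highest peaks the shares changed places, at 88.9% of KO and 82.9% of WT peaks. When a WT peak had to be covered to at least 50%, 51.4% (50.3 to 52.5) passed, since KO peaks covered 45.5% of the WT bases.

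**Figure D1:**
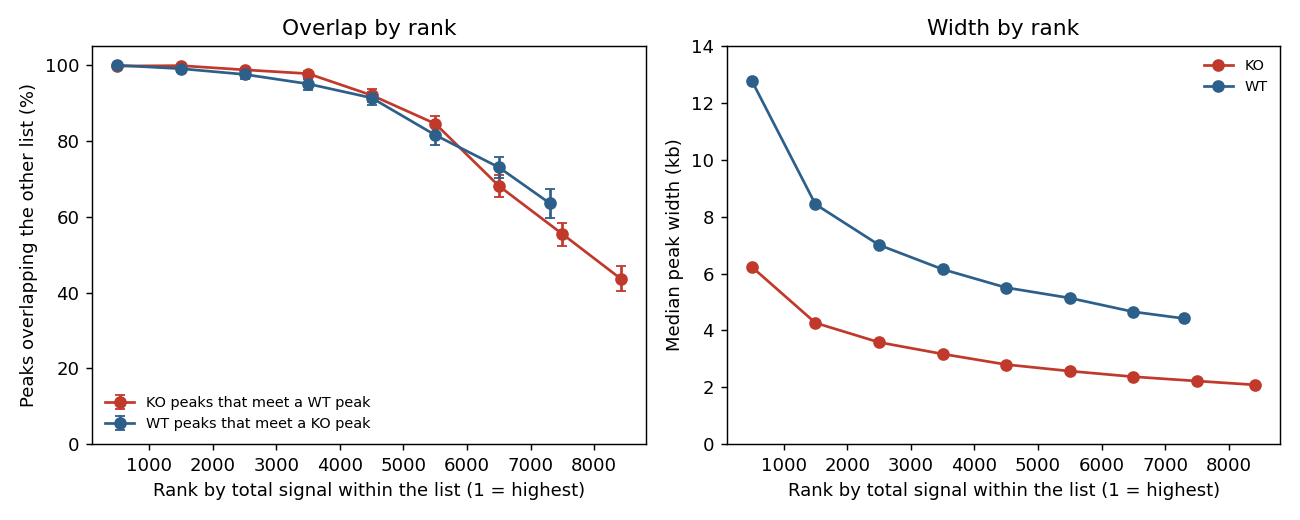
Left, share of peaks that overlap the other list (percent, bars are 95% Wilson intervals for counting error) by steps of 1000 ranks of total signal; right, median peak width (kb) in the same steps. Both lists start near 100% and decline to 43.6% (KO) and 63.6% (WT) in the last step, and WT peaks are wider at every step.

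A smaller share of the peaks found in KO alone than of those found in WT alone lay at gene starts. Of all KO peaks 71.6% (70.6 to 72.5) lay within 1 kb of a coding gene's start, against 80.4% (79.5 to 81.3) of WT peaks. Of the 1513 KO peaks that met no WT peak, 44.1% (41.6 to 46.6) were at a start, 34.6% within a gene and 21.3% outside genes. Of the 844 WT peaks that met no KO peak, 67.1% (63.8 to 70.2) were at a start, 26.3% within a gene and 6.64% outside genes. Any part of a peak within 1 kb of a start counted, so a wider peak reaches a start more easily. Those at a start had a median width of 2193 bp in KO and 5945 bp in WT, and the part of width in these shares was not tested. Where the start lay inside a peak, the KO peak reached a median of 1065 bp upstream and 1902 bp downstream of it and the WT peak 1950 and 3849 bp. The position of highest signal was downstream in both, at a median of 376 bp in KO and 246 bp in WT over the 3817 genes with 1 listed start inside a peak of each list. In 51.4% of these genes the 2 positions were within 250 bp of each other.

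At the level of genes, 6507 of 21887 coding genes had H3K9ac within 1 kb of the start in both lists. In the KO list it was found at 7196 genes (32.9%) and in the WT list at 7337 (33.5%), so 689 genes (3.15%) were in the KO list only and 830 (3.79%) in the WT list only. With lists of equal length the first number was 364 (1.66%) and the second 1240 (5.67%). That cut takes peaks from the KO list alone, so these counts do not show which genotype has more genes of its own. The same mark was also compared in WT cells only, where both lists share the grid and the WT HR list is the same one. There 1309 of the 21887 coding genes were in HR only and 256 in normoxia only. The normoxia list is the shorter one, with 6513 peaks and 6284 genes against 7593 and 7337, and the part of list length in these counts was not tested. The KO-only genes had weak peaks, with a median rank of 7496 of 8837 and a median width of 2187 bp, and 686 of the 689 lay in a peak that met no WT peak. The WT-only genes had a median rank of 5580 of 7593, and 206 of the 830 (24.8%) lay in a WT peak that did meet a KO peak elsewhere along its length, so that for them the start fell outside the narrower KO peak.

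The cells were checked by markers. Of 15 genes of hepatocyte identity, such as Alb, Ttr and Hnf4a, 12 had H3K9ac in both lists and 3 in neither. Of the macrophage markers 1 of 10 had it in both lists, Cd68, and of the cholangiocyte markers 2 of 8, among them Sox9. None of the 10 endothelial, 10 stellate or 10 lymphocyte and neutrophil markers had it in either list. Of all 515 genes of the 31 lists described here, 26 (5.05%) were in the KO list only and 30 (5.83%) in the WT list only.

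Several lists of hepatocyte function held more members in the KO list than in the WT list. Among 23 complement and coagulation genes 12 had the mark in KO and 10 in WT. Those in KO alone were Serpinc1, which encodes antithrombin (rank 5311 of 8837), C8a of the membrane attack complex (6451), and the clotting factors F12 (7195) and F5 (7484). Serpinc1 and F5 did have H3K9ac in WT normoxia and H3K27ac in WT HR. In WT alone were Cfb, the complement factor B gene (rank 1622 of 7593), which lay in a peak 15420 bp wide, and F10 (7233). Cutting both lists to equal length by maximum signal turned the order of this list, to 8 in KO and 10 in WT, and the KO peaks of Serpinc1, C8a and F5 were not in the list cut that way.
Among 22 acute phase genes, whose products the liver secretes in inflammation, 12 had the mark in KO and 9 in WT. Apcs, the serum amyloid P gene (5085), Fga, the fibrinogen alpha chain gene (6046), and Itih4 (8492) were in KO alone and none was in WT alone. Among the 3796 highest peaks of each list the order turned, to 5 and 6 members. The Fga peak was 1962 bp wide, and the nearest WT peak lay 19978 bp from the start. Fga did have H3K9ac in WT normoxia and H3K27ac in WT HR.

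Bile acid and bilirubin genes had the mark at 11 of 15 members in KO and 9 in WT, and at 9 in each with lists cut to equal length by maximum signal. Ugt1a1, which conjugates bilirubin for excretion, had the highest-ranked start peak in KO among genes with no WT peak within 5 kb. Its peak held rank 597 of 8837, spanned 4676 bp at chr1:88211391-88216066 over the start, and the nearest WT peak lay 68209 bp from the start. It is the first of 6 KO peaks within 96130 bp where no WT list used held a peak, and whether that stretch of DNA differs between the animals cannot be told apart from genotype. Without Ugt1a1 the count was 10 in KO and 9 in WT. Abcb11, the bile salt export pump, was also in KO alone, at rank 3886, but had H3K9ac in WT normoxia and H3K27ac in WT HR. All 9 members in both lists ranked higher in KO than in WT, against 48.4% of all genes in both lists. By maximum signal 6 of 7 did (41.2% of all genes), and by mean signal 7 of 8 (45.5%). Nr1h4, the bile acid receptor FXR, was at rank 1133 in KO and 2196 in WT. Slco1b2, an uptake transporter, was at 2798 and 5828. Baat, which joins bile acids to amino acids, was at 349 and 1431.

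Fatty acid oxidation genes had the mark at 13 of 20 members in KO and 11 in WT. Slc25a20, the carnitine carrier of mitochondria, was in KO alone at rank 6441, and Acadvl, which begins oxidation of very long chains, at 8743. Of the 11 in both lists 9 ranked higher in KO by total signal, 6 of 11 by maximum signal and 4 of 11 by mean signal, so the direction of the ranks turned with the measure. Pericentral genes had it at 3 of 12 members in both genotypes, with none in one list only. Periportal genes had it at 8 of 12 and 6, with Pigr (8114) and Arg1, the urea cycle arginase (8721), in KO alone. Both peaks fell out when the lists were cut to equal length, which left 6 and 6. Drug-metabolizing genes had it at 7 of 16 and 6, with Fmo5 in KO alone at rank 2411. With lists cut to equal length by maximum signal they had it at 6 in each, since the Fmo5 peak was then not in the KO list.

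NF-kB target and feedback genes were fewer in KO, at 6 of 18 members (33.3%) against 10 (55.6%). The shares of all coding genes were 32.9% in KO and 33.5% in WT. Nfkb2, the p100 subunit (rank 5747 of 7593), Icam1, an adhesion molecule (5947), Nfkbie, an inhibitor of NF-kB (7401), and the chemokine gene Ccl2 (7429) were in WT alone. Their WT peaks were 3580 to 9440 bp wide, none of them met a KO peak, and the nearest KO peak was 8470 bp or more from the start. Tnfaip3, the feedback inhibitor A20, was in both lists at ranks 573 in KO and 650 in WT. Of the 6 members in both lists 2 ranked higher in KO.

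Cell cycle genes had the mark at 3 of 24 members in KO (12.5%) and 7 in WT (29.2%), both below the shares of all coding genes (32.9% and 33.5%). Mcm2 and Mcm5, parts of the helicase that opens DNA for replication, Rrm2, which makes deoxyribonucleotides, and the kinase gene Cdk2 were in WT alone. Mcm5 was at rank 6513, Rrm2 at 5638 and Cdk2 at 6811 of 7593. The WT peak over Mcm2 was of another kind, at rank 899 and 13730 bp wide, and it met 1 KO peak that covered 33.8% of it and ended outside the 1-kb window. Pcna, the sliding clamp of replication, was in both lists, at rank 7134 in KO and 2151 in WT. Of the 3 members in both lists 1 ranked higher in KO by total signal, but 2 by maximum signal and 2 by mean signal. DNA repair genes had it at 10 of 24 in KO and 13 in WT, with Xrcc6, the Ku70 gene (4488), Xpa (7133) and Nbn (7552) in WT alone.

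Enzymes that write and erase histone acetylation were also fewer in KO, at 10 of 22 members against 13 in WT. The acetyltransferase genes Kat7 (rank 3426 of 7593) and Kat6b (5561) and the deacetylase genes Hdac5 (4383) and Hdac4 (4473) were in WT alone, and the acetyltransferase gene Kat8 was in KO alone (6974 of 8837). None of the 8 members in both equal-length lists ranked higher in KO by total signal, 2 of 9 did by maximum signal and 3 of 9 by mean signal. For 2 of the 8, Hdac3 and Kat2b, the KO and WT peaks compared do not overlap each other, so their ranks do not compare one place. Without them 0 of 6 ranked higher in KO by total signal, 1 of 7 by maximum and 3 of 7 by mean signal. Crebbp was at rank 4403 in KO and 2736 in WT, and Ep300 at 1112 and 813. Of all 6507 genes in both lists the peaks compared lay apart in 45. Bases covered within 5 kb of the start were at a median of 0.419 of the WT value in the 9 genes in both lists (0.408 in the 7 whose peaks overlap), against 0.578 over all 6507 genes.

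Among genes of acetyl-CoA supply 8 of 13 had the mark in KO and 10 in WT. Acat1 (7097) and Acat2 (6086), thiolases that act on acetoacetyl-CoA, were in WT alone. Acly itself had H3K9ac in both lists, at chr11:100523898-100528285 in KO (4388 bp, rank 1266) and chr11:100523721-100529400 in WT (5680 bp, rank 2848). The peak lies over the start and can be present whether or not the floxed part was removed, so it gave no check of the genotype labels. Acss2, the acetate-using enzyme, was at rank 6805 in KO and 6364 in WT. Slc25a1, the citrate carrier of mitochondria, was at 4370 and 937.
Genes that use acetyl-CoA to make lipids differed by 0 or 1 members between the full lists and were fewer in KO under some other settings. Cholesterol synthesis genes had the mark at 15 of 23 members in both genotypes, with Ebp (6749) and Hsd17b7 (7966) in KO alone and Dhcr7 (6143) and Mvd (7110) in WT alone. At equal length by maximum signal they had it at 12 in KO and 15 in WT, and among the 3796 highest peaks at 5 and 8. Of 13 in both equal-length lists 3 ranked higher in KO by total signal and 3 of 10 by maximum signal, but 8 of 12 by mean signal. Fatty acid and triglyceride synthesis genes had it at 15 of 20 in KO and 16 in WT, with Thrsp (6093) in KO alone and Fads1 (6921) and Elovl5 (7108) in WT alone. At equal length by maximum signal these were 13 and 16.

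Genes of stress programs had the mark at most members in both genotypes and in WT normoxia too. In normoxia it was at 19 of 20 endoplasmic reticulum stress genes, 17 of 18 NRF2 targets, 14 of 16 heat shock genes and 14 of 20 immediate early genes, and at 11 of 20 hypoxia targets. Endoplasmic reticulum stress genes had H3K9ac at 19 of 20 members in each list, and 15 of the 19 ranked higher in KO (12 by maximum signal and 13 by mean signal). Eif2ak3, the PERK kinase, was at rank 667 in KO and 3147 in WT, and Atf6 at 695 and 2641, while Atf4 was at 1271 and 401. NRF2 targets had it at 16 of 18 in KO and 17 in WT, with Slc7a11, the cystine carrier, in WT alone (rank 3286, 9310 bp). Heat shock genes had it at 15 of 16 and 14 (Hspa1b, 6099, in KO alone) and hypoxia targets at 17 of 20 and 16, with Ankrd37 (7256) and Pdk1 (8282) in KO alone and Kdm3a (6416) in WT alone. For hypoxia targets the order turned at equal length by maximum signal (14 and 16), with the start inside a peak (15 and 16) and among the 3796 highest peaks (9 and 11), where that of heat shock genes turned too (11 and 12). Immediate early genes had it at 14 of 20 and 15, with Fosb (5580) in KO alone and Fosl1 (5667) and Klf4 (7500) in WT alone. Of the 13 in both lists 8 ranked higher in KO by total signal, 7 by maximum signal and 4 by mean signal, so the direction turned with the measure. Myc was at rank 150 in KO and 223 in WT, and Jun at 297 and 438. Egr1 went the other way, at 6690 in KO and 3715 in WT, and so did Junb, at 283 and 37.
Nuclear respiratory chain genes had it at 17 of 19, p53 targets at 18 of 20, glycolysis genes at 15 of 18 and cell death genes at 13 of 20 in each list. When the start had to lie inside a peak p53 targets were at 14 in KO and 18 in WT and glycolysis genes at 13 and 15, and among the 3796 highest peaks cell death genes were at 6 and 9. Among the cell death genes Mlkl, the effector of necroptosis, was in KO alone (8182) and Casp9, the initiator caspase of the mitochondrial pathway, in WT alone (3096). Ferroptosis and iron genes had it at 12 of 15 in each, with Tfrc, the transferrin receptor, in KO alone (5707), and at 9 in KO and 12 in WT with the start inside a peak. Interferon response genes had it at 4 of 16 in each, with Ddx58 (6782) among those in KO alone and Irf1 (5687) and Tap1 (6592) in WT alone.

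**Figure D2:**
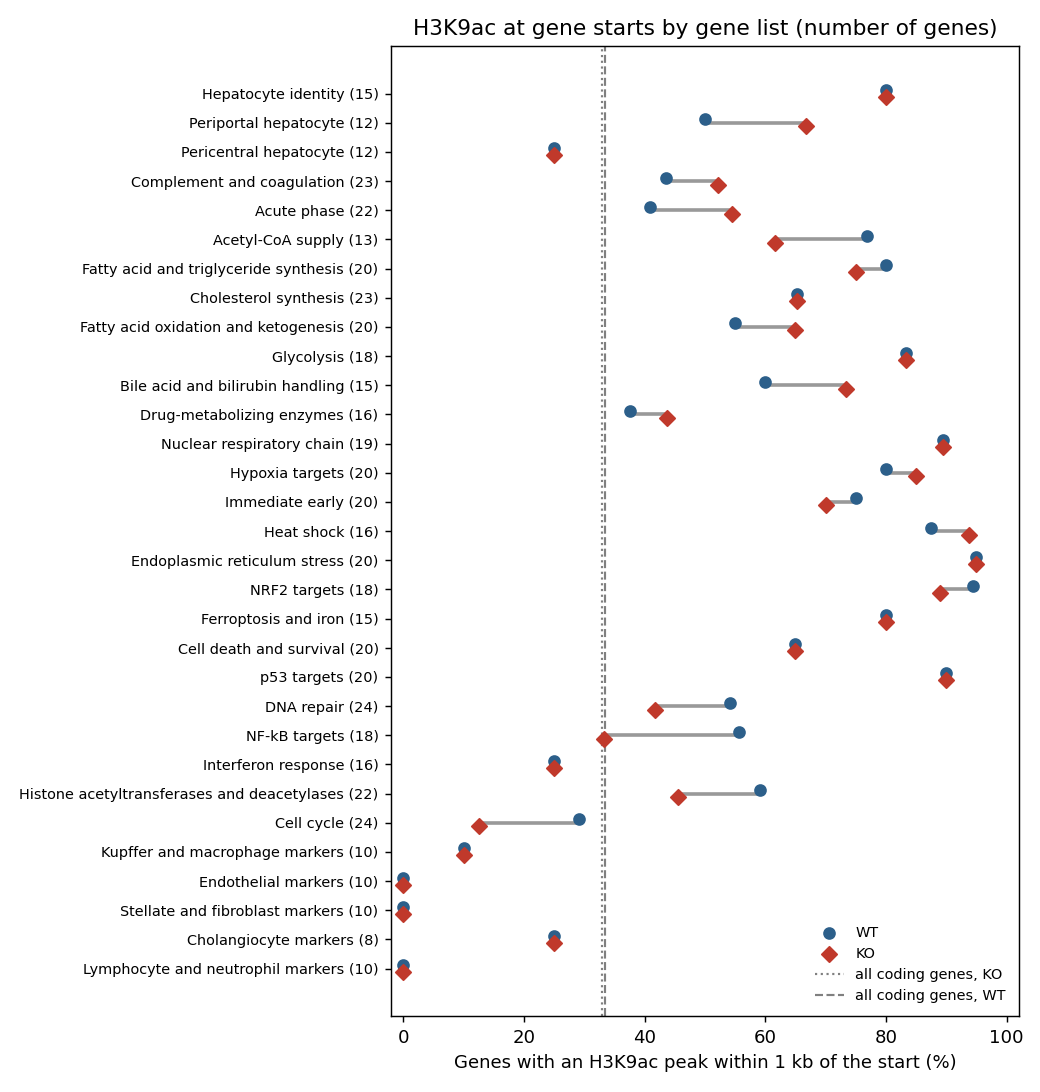
Share of the genes of each list with an H3K9ac peak within 1 kb of the start (percent), in WT (circles) and KO (diamonds), with the share over all coding genes as vertical lines (32.9% in KO, 33.5% in WT). Periportal, acute phase and bile acid genes lie further right in KO and NF-kB, cell cycle and acetyltransferase genes further right in WT, by 2 to 4 genes a list.

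Some genes held very different ranks in the 2 lists. Over the 6097 genes with a start peak in both lists cut to equal length, the rank difference was taken as a share of the list length, positive where KO ranked higher. Its median was -0.41 percentage points (quartiles -12.0 to 7.44), and Spearman's rho across genes was 0.758, a description, since neighbouring genes share peaks. The rank was higher in KO by 25 points or more at 223 genes (3.66%) and lower by as much at 723 (11.9%). Ranking by maximum signal gave 563 and 1216 genes, and by mean signal 1020 and 1348.

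Among the 6 genes with the largest difference in favour of KO, 5 are described here, all of them genes of hepatocyte products. Alb, the albumin gene, was at rank 1077 in KO and 5771 in WT, a difference of 61.8 points, with peaks of 6735 and 5960 bp. By maximum signal it was at 3912 and 6627. The Alb-cre transgene carries an albumin promoter, and whether its DNA adds to this peak was not tested. Mbl2, a lectin that starts complement, was at 2582 and 7211. Gpld1 was at 1053 and 5328, Ugt2b5, a glucuronosyltransferase gene, at 1192 and 5356, and Azgp1 at 745 and 4837. For these 5 the KO peak also ranked higher by maximum signal. By mean signal the difference was 57.5 points for Ugt2b5 but 6.41 for Alb and 10.6 for Mbl2, and it turned for Gpld1 (-16.5) and Azgp1 (-43.8).

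The 6 genes with the largest difference in favour of WT lay in very wide WT peaks. Jagn1 was at rank 7581 in KO and 67 in WT, in a WT peak of 20490 bp that met 2 KO peaks, while by maximum signal it was at 777 and 643. Tssc4, Get3, Mad2l2 and Rbck1 lay in WT peaks of 16610 to 21500 bp that met 2 or 3 KO peaks each, at KO ranks of 7065 to 7563 and WT ranks of 134 to 382. For Kxd1, which has no listed start, the 2 peaks compared lay at opposite ends of the gene. By maximum signal the difference was -1.77 points for Jagn1 and -9.59 for Get3, but -42.2 for Mad2l2, -51.8 for Rbck1 and -72.9 for Kxd1. The KO peak of Tssc4 was not in the list cut to equal length by maximum signal. By mean signal Mad2l2 ranked higher in KO, by 3.10 points.

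**Figure D3:**
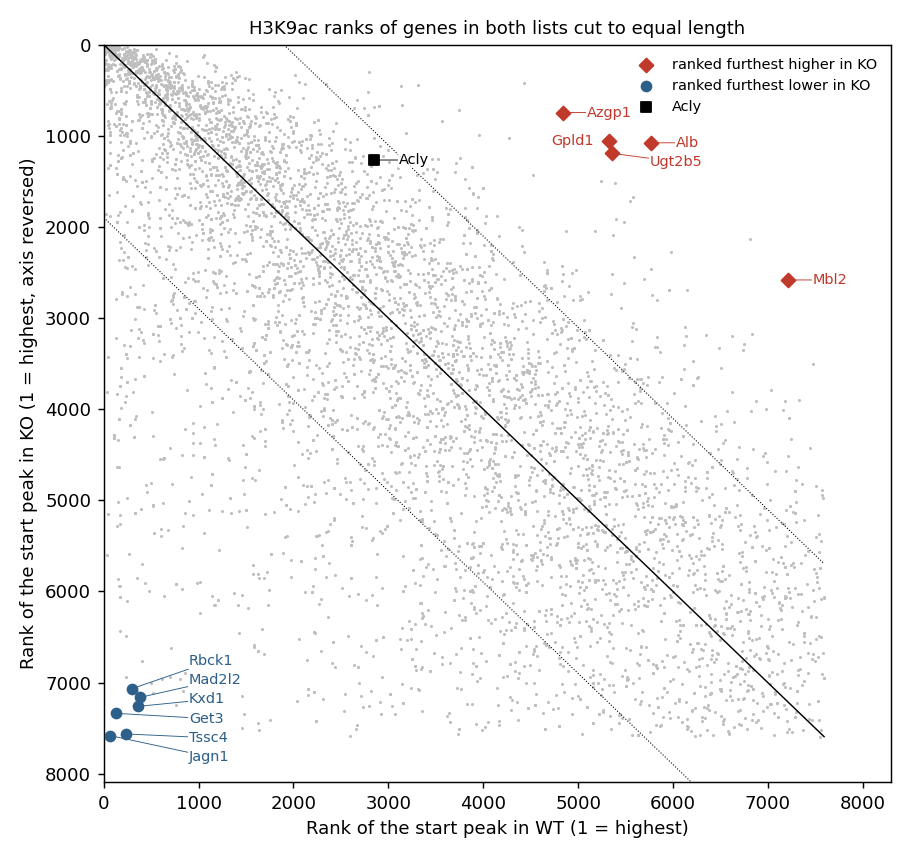
Rank of the start peak by total signal in WT (x axis) and KO (y axis, reversed), with 1 as the highest, for 6097 genes in both lists cut to 7593 peaks. The solid line marks equal rank and dotted lines 25 percentage points; the diamonds (Alb and 4 others) are among the 6 that rank furthest higher in KO and the blue circles (Jagn1 and 5 others) rank furthest higher in WT.

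Some genes had a start peak in one list cut to equal length and no peak of the other list within 5 kb. These were 344 in KO (1.57% of all coding genes) and 631 in WT (2.88%). That cut takes peaks from the KO list alone, and with the full lists the numbers were 650 and 631. With a KO start peak and no WT peak within 5 kb, after Ugt1a1 came Aida and Brox, which share a start region and 1 peak (rank 601, 3227 bp) and which ranked 6 by maximum signal in KO, then Trpm8, a cation channel gene (890, 9316 bp), in the same stretch as Ugt1a1. The next were Fmo5 (2411), Agmo (2723), Eif4enif1 and Gm51877 with 1 shared peak (2786), Ugt2b1 (3826) and AW549877 (3839). These KO peaks met no WT peak. Those of Trpm8 and Fmo5 were not among the 7593 KO peaks highest by maximum signal. With a WT start peak and no KO peak within 5 kb the first was Cirbp, which encodes a cold-inducible RNA-binding protein, at rank 29 in a WT peak of 29230 bp. That peak met 2 KO peaks, which covered 34.5% of it, the nearest 13664 bp from the start. Anapc15 (373), Pygo2 (437), Dhps (538), Setd1a, a histone methyltransferase gene (594), and Eef2, the translation elongation factor gene (629), were among the next. Their WT peaks were 10980 to 20090 bp wide and each met 1 KO peak. Jam2 (721) has no listed start, and its WT peak lay 581 bp from one end of the gene.
The genes ranked highest in both lists were H6pd (rank 7 in each), Lurap1l (8 in KO and 9 in WT), Tsc22d2 (3 and 14), Tnrc18 (10 and 12), Gclc, the catalytic subunit of glutathione synthesis (11 and 13), and Sorbs2 (6 and 27).

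H3K9ac covered fewer bases around the start in KO at nearly all genes. Over the 6507 genes in both, peaks covered a median of 3242 bp within 5 kb of the start in KO and 6140 bp in WT, and the KO value was larger at 118 genes (1.81%). The median ratio of KO to WT was 0.578 (quartiles 0.441 to 0.728) over all these genes. It was 0.777 for immediate early genes, 0.753 for hepatocyte identity genes, 0.740 for acute phase genes, 0.722 for NRF2 targets and 0.719 for fatty acid oxidation genes. Cholesterol synthesis genes (0.521) and hypoxia targets (0.535) lay near the value of all genes, and histone acetyltransferases and deacetylases were at 0.419.

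The other libraries differed at the KO-only and WT-only genes. Of the WT-only genes 53.3% (49.9 to 56.6) had H3K9ac in WT normoxia, against 10.9% (8.77 to 13.4) of the KO-only genes and 85.8% of genes in both. The normoxia list shares the genotype and the grid with the WT HR list. H3K27ac, a mark of active starts and enhancers, was found in KO HR at 52.8% (49.1 to 56.5) of the KO-only genes and at 44.1% (40.8 to 47.5) of the WT-only genes. In WT HR it was found at 20.9% (18.0 to 24.1) of KO-only and 35.7% (32.5 to 39.0) of WT-only genes. The H3K27ac list of KO HR is the longer one, with 14418 peaks against 8252 in WT HR. FLAG-ACLY peaks of WT HR were at 13.8% (11.4 to 16.6) and 15.5% (13.2 to 18.2), intervals that overlap, and at 24.5% of genes in both. Of the 26 list members in KO only, 23 had H3K27ac in KO HR, 11 in WT HR and 5 H3K9ac in WT normoxia. Of the 30 in WT only these numbers were 13, 10 and 17. The 5 KO-only members with H3K9ac in WT normoxia were Serpinc1, F5, Fga, Abcb11 and Thrsp, and each also had H3K27ac in WT HR.

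**Figure D4:**
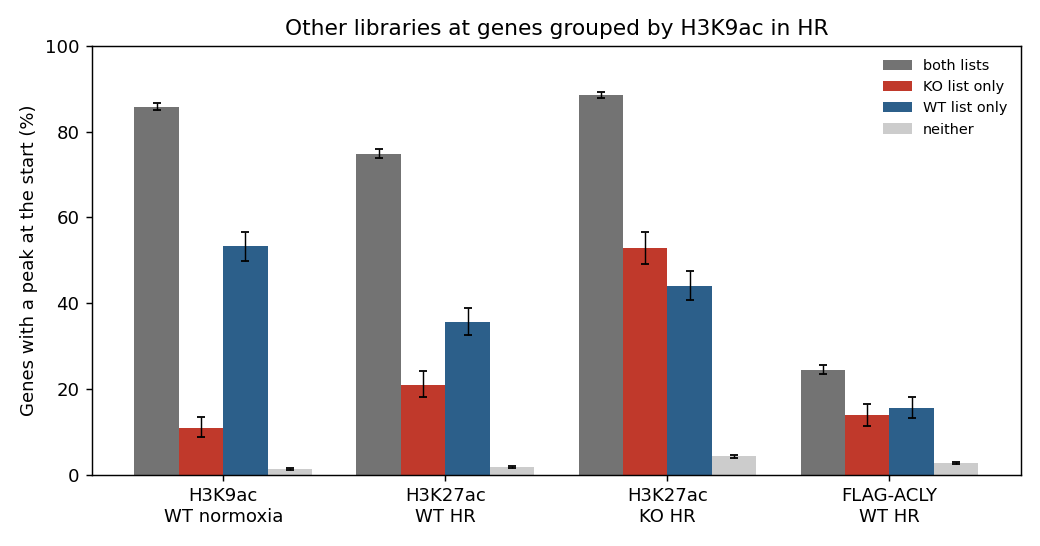
Share of genes with a peak at the start (percent, bars are 95% Wilson intervals for counting error) in 4 other libraries, for genes with H3K9ac in HR in both lists, KO only, WT only or neither. H3K9ac of WT normoxia separates WT-only (53.3%) from KO-only genes (10.9%), and FLAG-ACLY is at 15.5% and 13.8% of them.

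KO-only genes had a lower GC content before the start than WT-only genes and genes of both. The 250 bases before the start had a median GC content of 56.0% (quartiles 50 to 62) in KO-only genes, 62.0% (55.2 to 69.1) in WT-only genes, 61.6% in genes of both and 51.2% in genes of neither. Median counts of CG dinucleotides were 13 in KO-only, 17.5 in WT-only and 18 in genes of both. The 26 list members in KO only had a median of 6.5 CG dinucleotides there, over 24 with sequence, and the 30 in WT only 19.5, also over 24. Low counts went with the plasma protein lists in every class, with a median of 2.5 in complement and coagulation genes of both lists, 2.5 in those of KO only and 3 in those of neither. Genes were split by GC content into 5 bins of like size. In the bin of lowest GC content (up to 44.4%) 59 genes were in KO only and 27 in WT only, and in the highest (65.6% or more) 79 and 228. All genes with the mark went from 296 in KO and 264 in WT in the lowest bin to 1880 and 2029 in the highest. WT-only genes thus grew along with all WT-marked genes, while KO-only genes became a smaller part of the KO-marked genes. The median rank difference went from 4.93 points in the lowest bin to -1.62 in the highest. By maximum signal it was 0.079 in the lowest bin, -5.60 in the bin next to the highest and -4.91 in the highest. The median over all genes was -4.36 by maximum signal and -0.41 by total signal. The lowest bin thus lay above the median of all genes by both measures, but only by total signal was it well above 0. For H3K27ac in HR the KO list held far more genes in all 5 bins, from 96 in KO only against 12 in WT only in the lowest to 314 against 25 in the highest. The part of GC content in the differences between the lists was not tested.

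**Figure D5:**
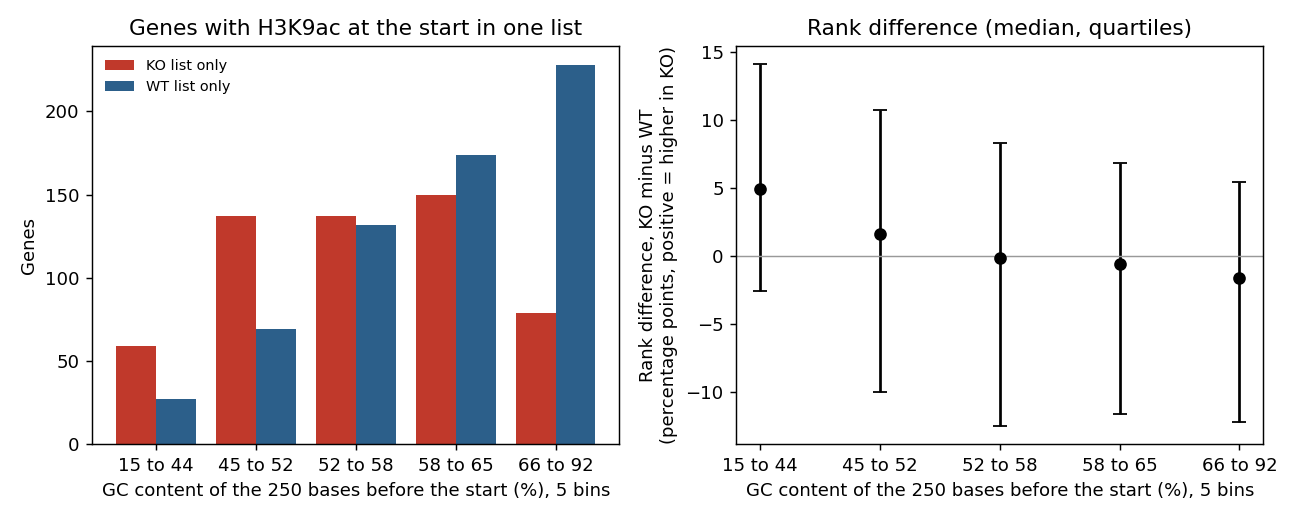
Left, number of genes with H3K9ac at the start in one list only, by 5 bins of GC content (percent) of the 250 bases before the start; right, median rank difference, KO minus WT (percentage points), with quartiles as bars. WT-only genes grow from 27 to 228 across the bins, while all genes marked in WT grow from 264 to 2029. KO-only genes are most numerous in the middle, and the median rank difference by total signal declines from 4.93 to -1.62.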

How the data were processed

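CUT&RUN of primary mouse hepatocytes was used as the authors deposited it, as 1 peak list per library, with coordinates on mm10. Per the submitters' processing notes Trimmomatic and kallisto were used, with no versions. The aligner, the peak caller and its settings are not given in the sources used here. For each peak the deposited list gives 2 values of signal (coverage), a total and a maximum, with no statement of their normalization, and the position of the maximum. Per the file contents peaks were called per library. Signal served only to rank peaks within a list. Depth per library is unknown, so no limit of detection is given.

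The KO HR and WT HR lists of H3K9ac were compared, and 5 further lists (H3K9ac and H3K27ac of WT normoxia, H3K27ac of WT HR and KO HR, and FLAG-ACLY of WT HR) served as other readouts. The list of FLAG-ACLY in WT normoxia, which holds 1 peak, and the RNA files were not used here, and the IgG samples were not analysed here. Overlap means at least 1 shared base. Genes are the 21887 nuclear coding genes of RefSeq on GRCm38.p6, the assembly that mm10 names. Starts came from the RefSeq promoter table. For the 4395 genes without a listed start a peak within 1 kb of either gene end counted, so some of these peaks lie at the 3′ end. Of 517 listed symbols 515 matched a coding gene.

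The members and the gene lists were chosen with earlier results of these data known. Genes named are list members with the mark in one list only, the 10 highest-ranked genes of each list with no peak of the other within 5 kb, the 6 largest rank differences each way, the 6 highest by both ranks, and Acly. A few genes that this rule names are not reported here. Other list members named as examples were chosen after their values were seen. With 1 library per group no test was made. Shares carry 95% Wilson intervals. Alternatives were other windows, list lengths, ranking by maximum or mean signal, merging peaks within 1 kb and a stricter threshold. Python 3.11.15, pandas 2.3.3, numpy 2.4.6 and scipy 1.17.1 were used. The overlap and gene counts were tested on simulated data and against bedtools 2.31.1.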

Additional observations from a re-analysis of the deposited data

How the results depend on the processing

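Of the 239 values computed under other settings, 189 did not turn and stayed within the limits set for a change. These limits let a difference of 1 member become 0, as for hypoxia targets at equal length by total signal. The limits for counts of genes were wide. They let WT-only genes go from 830 to 1240 at equal length by total signal, 1188 by maximum signal and 1056 in the lists of 3796. The 189 also hold lists with no marked member, such as endothelial markers, whose difference could only be 0. The other values are given here with the main value first, and the cause was not tested unless the setting itself removes peaks. A stricter threshold left the 3796 highest peaks in each list. KO-only genes went from 689 to 364 at equal length and 445 in the lists of 3796, WT-only genes from 830 to 1348 when the start had to lie inside a peak, and genes in both from 6507 to 3156 in the lists of 3796. KO peaks that met a WT peak went from 82.9% to 88.9% at equal length by total signal and 87.0% by maximum signal. WT peaks that met a KO peak went from 88.9% to 82.9% and 81.8% in the same settings, 79.4% in the lists of 3796 and 51.4% at a minimum cover of 50%. KO peaks at a start went from 71.6% to 72.8% within 2.5 kb and 73.9% at equal length. Genes ranked 25 points or more higher in KO went from 223 to 563 by maximum and 1020 by mean signal, and those lower from 723 to 1216 and 1348.

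A gene list counted as changed where its KO minus WT difference in members turned, moved by 2 or more, or went from 2 or more to 0. It turned for complement and coagulation genes (2 to -2, equal length by maximum signal), acute phase genes (3 to -1, lists of 3796), hypoxia targets (1 to -2 at equal length by maximum signal and in the lists of 3796, and to -1 with the start inside a peak) and heat shock genes (1 to -1, lists of 3796). At equal length by maximum signal it went to 1 for acute phase genes (3), to -3 for fatty acid synthesis (-1) and cholesterol synthesis genes (0) and to -2 for glycolysis genes (0). In the lists of 3796 it went to 2 for hepatocyte identity (0), 4 for bile acid (2), 3 for drug-metabolizing (1), -1 for NF-kB (-4), -2 for glycolysis and ferroptosis (0 each) and -3 for cholesterol synthesis and cell death genes (0 each). With the start inside a peak it went to -7 for histone enzyme (-3), -4 for p53 (0), -3 for ferroptosis (0) and -2 for glycolysis genes (0), and at equal length by total signal to -2 for cell death genes (0). It became 0 for complement and coagulation genes in the lists of 3796, for periportal genes at equal length by either signal or with the start inside a peak, and for bile acid genes at equal length by maximum signal. NF-kB, cell cycle, DNA repair, acetyl-CoA supply and histone enzyme genes had fewer members in KO in each of the 6 other settings. The settings of equal length take peaks from the KO list alone, so they can only lower the KO count and are no check of these lists. The start inside a peak also counted against the narrower KO peaks, with 641 KO-only and 1348 WT-only genes over all coding genes. At equal length WT normoxia H3K9ac was at 13.5% of KO-only genes (10.9%), KO H3K27ac at 68.1% (52.8%) and WT H3K27ac at 30.5% (20.9%), and KO H3K27ac at 49.0% of WT-only genes (44.1%). The lists of 3796 and the start inside a peak for gene lists, and counting only genes with a listed start (562 KO only and 630 WT only), were chosen after seeing the data. No paired analysis was possible because each genotype has 1 H3K9ac library in HR and the result comes from no test.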

Other observations

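A stretch of chromosome 1 had H3K9ac in KO and no peak in any WT list used. Peaks of the KO list that overlapped none of the 4 WT acetylation lists numbered 596 of 8837, and WT peaks of H3K9ac in HR that overlapped neither KO list numbered 376 of 7593. Counted along the chromosomes, the longest run of neighbouring KO peaks of this kind held 7 peaks, from chr1:88211391-89072335, and the next longest 5 peaks on chromosome 17. The longest run in WT held 3 peaks. The first 6 peaks of the run on chromosome 1 lay within 96130 bp, chr1:88211391-88307520, a window that 12 coding genes touch. They include the start peaks of Ugt1a1 (rank 597) and Trpm8 (rank 890) and a peak of 8804 bp at chr1:88261866-88270669 (rank 1342). In the same window the H3K27ac list of KO HR held 3 peaks, among them one of 15746 bp over the Ugt1a1 start (rank 994 of 14418). The H3K9ac and H3K27ac lists of WT normoxia and WT HR and the FLAG-ACLY list of WT HR held 0. Further upstream both genotypes were marked, with H3K9ac at chr1:88102860-88111839 in KO (rank 841) and chr1:88102221-88111530 in WT HR (rank 3568). A nearer pair lay at chr1:88138272-88144391 in KO (rank 1322) and chr1:88135891-88143750 in WT HR (rank 3860). This WT peak is the one 68209 bp from the Ugt1a1 start. This run was looked for after the data were seen, and its cause was not tested.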
